A study of Mus musculus with 25 samples.

Results

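Early elongating spermatids were sought in mouse testes by the transcripts they hold. A member was a cell barcode of a WT, Cul4a or CNP testis with at least 300 transcripts (unique molecular identifiers, UMIs), with at least 1% of them over the 4 chromatin genes Prm1, Prm2, Tnp1 and Tnp2, and with more UMIs over 7 early genes (Prss58, Gm136, Tfam, Tex37, Cstl1, Gm11634 and Prss52) than over 7 late genes (Car2, Spata3, Ttc24, Paqr5, 1700015G11Rik, H2afb1 and Oaz3). The rule found 1959 of the 31997 barcodes with at least 300 UMIs in these strains, and of the 48642 barcodes of the series. WT testes gave 1702 members from 11 libraries, Cul4a testes 194 from 2 and CNP testes 63 from 2. Since most members lay within the library spread of barcodes that the rule left undecided, they are called early-marker barcodes here and not a cell type.

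Whole testes were dissociated and profiled by Drop-seq, which puts a cell and a barcoded bead in 1 droplet and counts transcripts from their 3′ ends. WT animals were C57BL/6 males by the labels (C57BL/6J in the study's sample list, likewise for CNP) between 3 months 1 day and 9 months 14 days of age, each giving 1 library. Cul4a animals were Cul4a-/- males on a mixed B6;129 background, aged 1 month 18 days and 1 month 21 days per the labels. CUL4A holds together a ubiquitin ligase complex. CNP animals were C57BL/6 males with the CNP eGFP BAC TRAP transgene, a bacterial artificial chromosome in which Cnp sequence drives a green-fluorescent tag for translating ribosomes, aged 2 months 14 days and 2 months 16 days. The ages of the Cul4a and CNP animals are exchanged in the sample list of the study. The Cul4a animals were younger than every WT animal by the labels and differed from them in background, so genotype, background and age cannot be told apart in that comparison. The CNP animals were also younger than every WT animal by the labels, so transgene and age cannot be told apart either. WT1 and WT2 were dissociated with enzymes, the sequencer of WT1 and WT3 was a MiSeq, and the other WT, Cul4a and CNP libraries were dissociated mechanically and sequenced on a HiSeq. Comparisons therefore used WT4 to WT11, which held 1604 members. Libraries of Mlh3-/- males and of flow-sorted spermatids entered no comparison. The Mlh3 animals, B6.129 in the study, were aged 2 months 21 days to 8 months 30 days by the labels. The sorted spermatids came from C57BL/6J males in the study, aged 2 months 21 days by the labels.

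In spermiogenesis the round spermatid condenses and reshapes its nucleus, builds the acrosome and tail and sheds most of its cytoplasm. Histones are exchanged first for transition proteins (TNP1, TNP2) and then for protamines (PRM1, PRM2). Transcription stops as chromatin condenses, so that many mRNAs, those of the protamines included, are made in round spermatids, stored in ribonucleoprotein particles and translated days later. Stage can therefore be read from RNA only where transcripts are made or lost between stages.

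The promoters of 3 chromatin genes and of 3 early genes are shown because the rule rests on both sets. Each line gives the 100 bases before the transcription start, from RefSeq on GRCm38.p6, in 5′ to 3′ direction of the gene, and capitals mark TATA or TATATA. The windows are those of Prm1 (chr16:10796824-10796923, minus strand), Prm2 (chr16:10792106-10792205, minus strand), Tnp2 (chr16:10788656-10788755, minus strand), Prss58 (chr6:40900388-40900487, minus strand), Tex37 (chr6:70918923-70919022, minus strand) and Cstl1 (chr2:148750261-148750360, plus strand).
Prm1: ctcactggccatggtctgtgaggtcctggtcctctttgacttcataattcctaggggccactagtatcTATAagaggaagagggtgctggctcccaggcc
Prm2: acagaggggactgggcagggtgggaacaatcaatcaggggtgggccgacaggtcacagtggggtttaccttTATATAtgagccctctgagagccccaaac
Tnp2: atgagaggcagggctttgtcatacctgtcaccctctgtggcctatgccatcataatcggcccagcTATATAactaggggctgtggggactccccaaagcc
Prss58: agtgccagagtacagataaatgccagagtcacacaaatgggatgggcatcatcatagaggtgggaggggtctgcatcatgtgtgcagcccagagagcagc
Tex37: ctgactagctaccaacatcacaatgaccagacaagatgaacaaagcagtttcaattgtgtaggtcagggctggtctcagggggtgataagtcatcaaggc
Cstl1: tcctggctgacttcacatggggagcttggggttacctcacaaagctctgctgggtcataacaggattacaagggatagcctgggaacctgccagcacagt

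The letters TATA began 32 bases before the start of Prm1, 29 before that of Prm2 and 35 before that of Tnp2. Within 20 to 40 bases before the start, TATA was found in 3 of the 4 chromatin promoters, in 0 of 7 promoters of early genes (6 of the 7 genes matched, Gm11634 with 2 starts) and in 0 of 3 promoters of late genes, against 5.81% of all 32851 promoters. Prm1, Prm2 and Tnp2 are neighbours on chromosome 16, with starts within 8168 bases of each other. TGACGTCA, the full site of the spermatid activator CREM and its relatives, was found on neither strand of these 14 promoters from 250 bases before to 50 bases after the start, and 1.79% of all promoters held it. TGACG, which the full site contains, was also found in 0 of the 14 and in 20.8% of all promoters (both strands). Both searched forms hold the letters CG. The study describes a late motif that mostly has no CG at its centre and proposes, speculatively, the tau form of CREM for it. Sites without CG were not searched. A match of letters is a description of the window and not of a bound site.

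Most members were chosen by a single transcript. Of the 1959 early-marker barcodes, 1287 had 1 early UMI more than late UMIs, and across the 8 WT libraries the margin was 1 UMI for 1087 members, 2 UMIs for 361 and 3 or more for 156, of which 20 had 5 or more. In WT4 to WT11, 2644 barcodes that met the rest of the rule were tied, and 3489 had 1 late UMI more than early UMIs. Members at a margin of 1 were the majority in every library except WT3 (33.3%), from 53.1% in the second Cul4a library to 74.8% in WT6. The median member held between 364 and 627 UMIs in these 8 libraries, 1043 and 764.5 in the Cul4a libraries and 381 and 408 in the CNP libraries, where round spermatids (the comparison class set by acrosome markers) and pachytene spermatocytes held medians of 1445 and 1606 over WT4 to WT11.

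**Figure D1:**
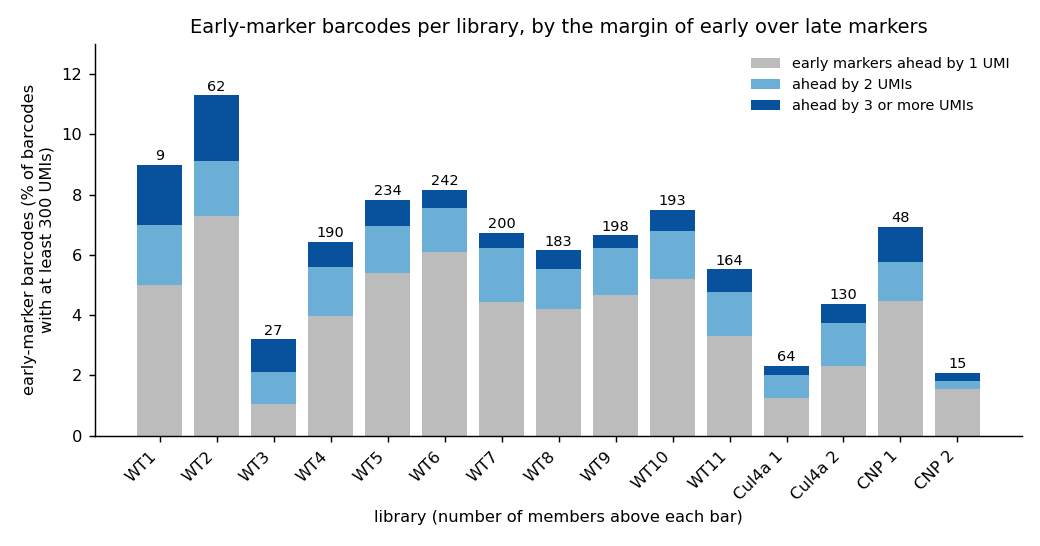
Members as a percent of the barcodes with at least 300 UMIs (y axis) in each of the 15 libraries (x axis), stacked by the number of UMIs by which early markers exceeded late markers, with the number of members above each bar. Grey, a margin of 1 UMI, fills most of each bar except that of WT3, and both Cul4a bars are lower than those of WT4 to WT11.

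Markers of other stages did not set members at a margin of 1 apart from tied barcodes. Pachytene markers (Piwil1, Sycp3, Hspa2 and others, 9 genes of meiotic prophase) took 64.8 of every 10000 UMIs in members at a margin of 1 and 64.9 in ties of WT4 to WT11, and over the libraries the ratio ran from 0.916 to 1.05 and was above 1 in 5 of 8. Round spermatid markers (15 genes, mostly of the acrosome) took 37.3 and 36.2, and markers of the 5 non-germ classes 8.68 and 8.65. The chromatin genes took 327 per 10000 in members at a margin of 1 and 313 in ties, with ratios between 0.868 and 1.17 that were above 1 in 7 of 8 libraries. Barcodes that were late by 1 UMI held 310, 64.3 and 36.7 per 10000 of the chromatin, pachytene and round markers. Members at a margin of 1, ties and barcodes late by 1 therefore lay within the spread between libraries on each of these sets.

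Members at wider margins moved away from ties. At a margin of 3 or more the chromatin genes took 560 per 10000 UMIs, between 1.24 and 3.34 times the level of the ties in each of the 8 libraries, and late barcodes at a margin of 3 or more held 564. Their pachytene markers took 59.5 per 10000 and lay under the ties in all 8 libraries (ratios 0.731 to 0.986). Of these markers Meig1 took 39.5 against 35.5 in ties, whereas Sycp3 took 1.47 against 2.74 and Hspa2 4.65 against 7.17. Piwil1, the Piwi protein of pachytene piRNAs, took 0.853 per 10000 against 1.85 in ties and 3.18 in pachytene spermatocytes, with a ratio to ties under 1 in 7 of 8 libraries. Smcp, a protein of the mitochondrial capsule of the sperm midpiece, took 57.2 in ties, 61.2 at a margin of 1, 63.6 at 2, 75.4 at 3 or more and 93.4 at 5 or more. Late barcodes at a margin of 3 or more held 93.2 of Smcp, 56.9 of the pachytene markers and 1.16 of Piwil1, with 35.9 of Meig1, 1.61 of Sycp3 and 4.82 of Hspa2. Apart from the higher Meig1, these shifts from ties were thus not particular to members. The 20 members of the widest margin held 831 per 10000 of the chromatin genes at a median of 1253.5 UMIs, so depth moved with the margin. The chromatin genes and the early genes are part of the rule, and these values carry no test.

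**Figure D2:**
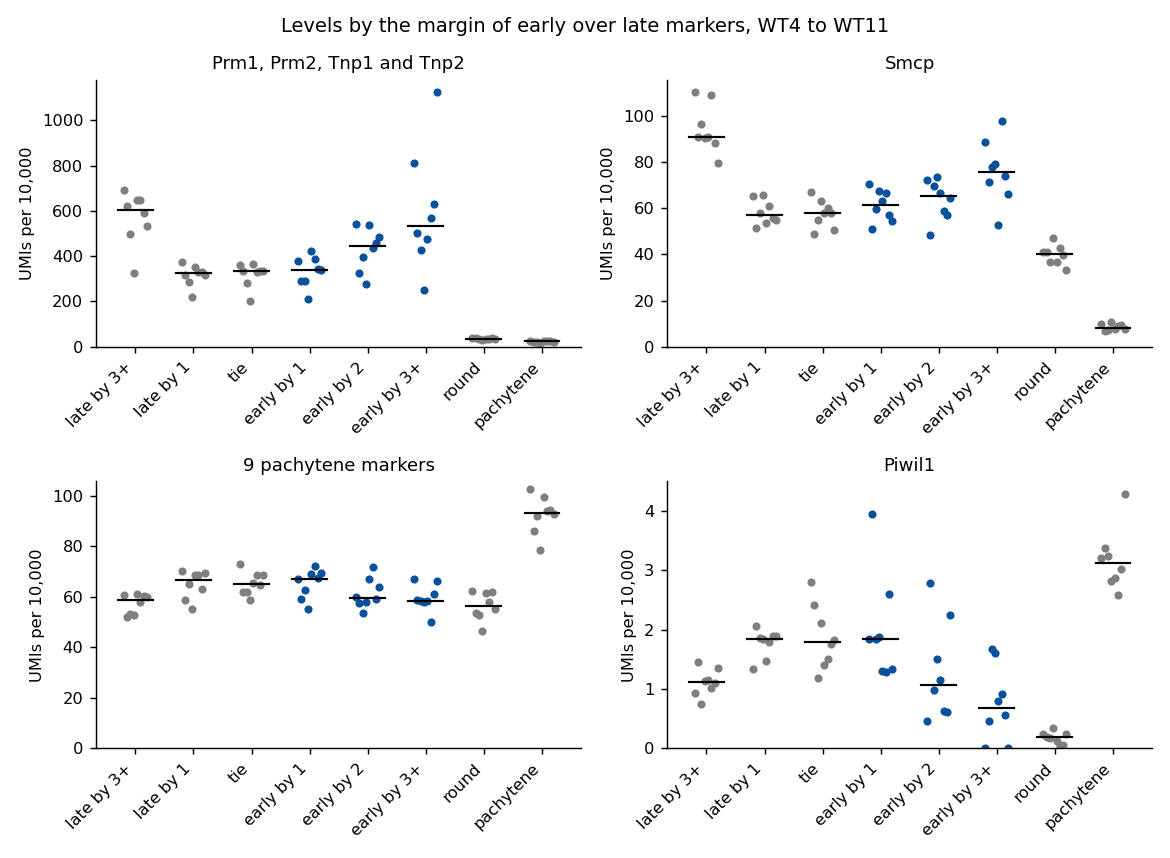
UMIs per 10000 (y axes) of the 4 chromatin genes, Smcp, the 9 pachytene markers and Piwil1 by class of barcode (x axes), with a point per WT4 to WT11 library, a line at the median and members in blue. Ties, barcodes late by 1 and members at a margin of 1 overlap in every panel, and at a margin of 3 or more the medians are higher for the chromatin genes and Smcp and lower for Piwil1.

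Members just inside the thresholds held values near those of barcodes just outside them. The 37 members less than 10 UMIs above the minimum and the 29 barcodes at most 10 UMIs below it that met the rest of the rule held medians of 3% and 2.39% of chromatin gene UMIs. The 58 members with 1% to 1.2% and the 67 barcodes with 0.8% to 1% held medians of 598 and 644 UMIs. Among the sorted spermatids, a library of flow-sorted cells that the rule left out, 11 of 169 barcodes met it, 8 of them at a margin of 1 and 0 at 3 or more. In the 6 libraries of Mlh3 testes, whose germ cells arrest in meiosis, 0 of 8298 barcodes met the rule, which allows a share of up to 0.0362%. No member barcode was shared between any of the 105 pairs of libraries.

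The genes of the rule were higher in members by construction, so their levels are given as a description, as counts scaled to 1000000 member UMIs of a library (CPM, not corrected for length). Tfam, whose protein packages and transcribes mitochondrial DNA, stood at 890, 1274 and 1419 CPM (lowest, median and highest of WT4 to WT11), at 838 and 888 in the Cul4a libraries and at 1102 and 1456 in the CNP libraries. Late barcodes held 541 ± 66.8 CPM of Tfam (SD, n = 8 libraries), round spermatids 82.9 ± 21.1 and pachytene spermatocytes 33.7 ± 7.08. The lowest Tfam level of members among WT4 to WT11 was thus above the late barcodes of these 8 libraries, and both Cul4a libraries lay under it. Cul4a members were also deeper, with a median of 853.5 UMIs against 516 in WT4 to WT11. The 7 early genes together took 36.7 of their 10000 UMIs against 44.8. Since the rule chose members by these genes, no strain effect is read from them, and the part of depth was not tested. Tex37, a testis-expressed gene, stood at 972, 1178 and 1556 CPM in WT, at 1013 and 931 in Cul4a and at 1388 and 1699 in CNP members. Prss58, a trypsin-like serine protease, stood at 324, 534 and 701 CPM in WT, at 459 and 371 in Cul4a and at 775 and 485 in CNP. The Cul4a and WT ranges of Tex37 and Prss58 overlapped.

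Gm136 stood at 287, 325 and 613 CPM in WT4 to WT11, at 338 and 293 in Cul4a and at 367 and 364 in CNP members. Cstl1, a cystatin-like protease inhibitor, stood at 342, 589 and 637 CPM in WT, at 676 and 483 in Cul4a and at 735 and 850 in CNP. For both genes the Cul4a range touched the WT range, and for Cstl1 both CNP libraries were above WT4 to WT11 but under WT1, WT2 and WT3 (952 to 1335 CPM). Gm11634 and Prss52, a second serine protease, averaged 301 ± 65.3 and 354 ± 82.9 CPM in WT members (SD, n = 8). Late barcodes held 139 and 138 CPM of these 2 genes. Among the late genes Oaz3, the testis antizyme that limits polyamine synthesis, averaged 745 CPM in members, 2935 in late barcodes and 1170 in round spermatids, and Spata3 averaged 504, 1875 and 608 CPM. Car2, carbonic anhydrase 2, averaged 150 CPM in members and 599 in late barcodes.

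The chromatin genes are part of the rule for members and for late barcodes, and their summed share was higher in late barcodes in 7 of the 8 libraries WT4 to WT11. Round spermatids were taken only from barcodes under the minimum share of chromatin gene UMIs that the rule sets. Their low levels of these genes therefore follow from the definition of the class and are no finding. Tnp2 stood at 4918, 7654 and 9850 CPM (lowest, median and highest) in WT members, at 8067 and 6026 in Cul4a and at 8775 and 16992 in CNP, and its mean of 7307 ± 1714 in WT members lay beside 7998 in late barcodes, 652 in round spermatids and 376 in pachytene spermatocytes. Prm1 averaged 9909 ± 2955 CPM in members and 12619 in late barcodes, and Prm2 averaged 14633 ± 1895 and 19479. Tnp1 averaged 7204 ± 2207 and 7974 CPM. The spread of Prm1 between WT libraries, from 4173 to 13794 CPM, was wider than its distance to the late barcodes. Over the 3 strains, a UMI of Prm1 was found in 95.5% of all 1959 members and in 63.3% of all 5198 pachytene spermatocytes, which do not make protamines. Tfam was found in 50.9% and 8.31%, Tex37 in 49.4% and 8.39% and Cstl1 in 28.2% and 4.73% of these barcodes. In WT4 to WT11 the median depths of members and pachytene spermatocytes were 516 and 1606 UMIs.

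**Figure D3:**
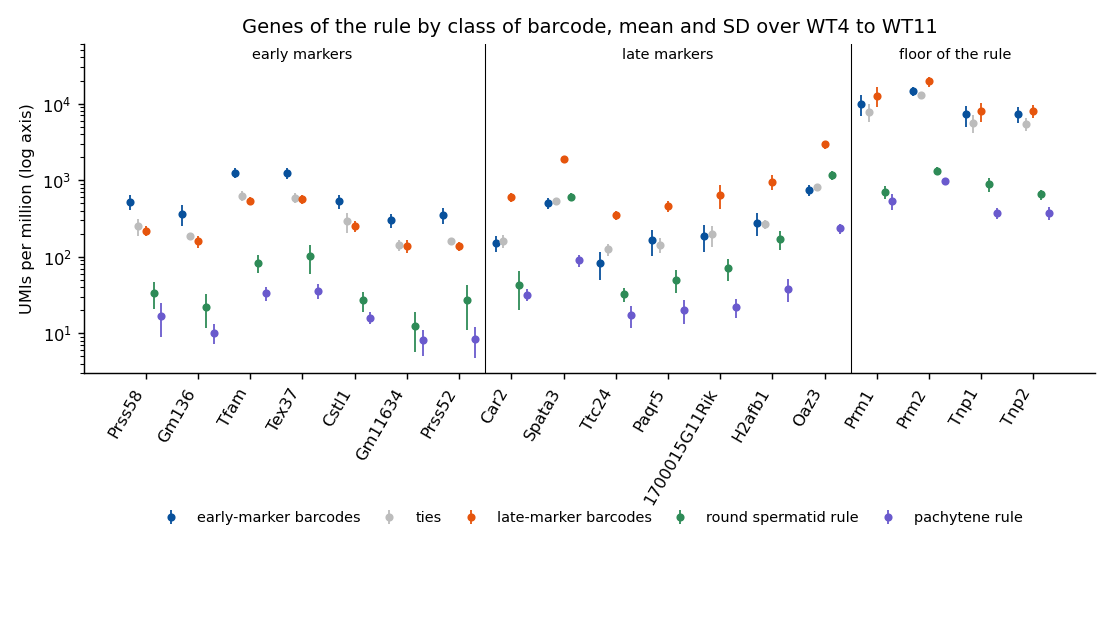
Mean CPM (log axis) of the 18 genes of the rule in 5 classes of barcode, with bars for the SD over WT4 to WT11. The 7 early genes are highest in members and the 7 late genes in late barcodes, whereas the chromatin genes of members, ties and late barcodes lie close together and far above round and pachytene barcodes. Round barcodes were taken only from under the minimum share of chromatin gene UMIs that the other 3 of these classes had to meet, so that gap follows from the definitions.

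Outside the rule, members differed from round spermatids in many genes and from late barcodes in few. Of 3519 genes with at least 50 CPM in WT members, 644 (18.3%) were higher than in round spermatids of the same library in all of WT4 to WT11 and 781 (22.2%) were lower. Against late barcodes 80 (2.27%) were higher and 101 (2.87%) lower in all 8. These are descriptions without a test, since the same barcodes were split by related genes, and the classes also differed in depth.

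Against round spermatids, the largest median log2 ratio (CPM + 20) was that of RP23-445K8.1, at 3.13, for which no annotation was matched. mt-Rnr2, the large ribosomal RNA of mitochondria, averaged 19119 ± 4478 CPM in members and 2853 ± 1358 in round spermatids (log2 ratio 2.84). Oxct2b, a testis ketone-body enzyme, averaged 292 ± 51.7 and 32.1 ± 11.8 CPM (2.64), with no overlap between the classes. Also among the 12 highest were Bzw1 (2.48), the kallikrein Klk1b8 (2.47), Agpat2, which makes phosphatidic acid (2.43), and Mllt10, a chromatin factor (2.39) that was highest in pachytene spermatocytes, at 692 CPM against 363 in members. The others were 1700012A03Rik, Gm498, 1700009J07Rik, Gm5893 and Lrrc57, with ratios between 2.30 and 2.67. All 12 except mt-Rnr2 and Mllt10 averaged higher in late barcodes than in members, with Oxct2b at 380 CPM and Klk1b8 at 332 against 246. They were thus not particular to members. Late barcodes averaged 16057 CPM of mt-Rnr2 and 298 of Mllt10.

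Among the genes that were lower than in round spermatids, Tex36 averaged 262 ± 61.4 CPM in members and 1085 ± 154 in round spermatids (log2 ratio -1.97). Hsfy2, a relative of heat shock factors, averaged 102 ± 25.8 and 430 ± 52.5 CPM (-1.94), and Ftmt, mitochondrial ferritin, averaged 98.3 ± 36.5 and 430 ± 48.3 CPM (-1.85). Hsfy2 is also among the markers that set the round spermatids, so its difference follows in part from that choice. The remaining 9 of the 12 lowest were 1700067P10Rik (-2.21), BC061194, Nipsnap3a, RP23-437A9.1, 1700001P01Rik, 4930432E11Rik, 1700007K09Rik, the deubiquitinase Stambpl1 and Chn1, a regulator of Rac, between -2.21 and -1.84.

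Against late barcodes the largest ratios were small. Spem1, which is needed to strip cytoplasm from the sperm head, averaged 416 ± 55.2 CPM in members and 629 ± 103 in late barcodes (median log2 ratio -0.57). Dnajb8, a co-chaperone of the DnaJ family, averaged 628 ± 91.9 and 879 ± 83.0 CPM (-0.51). The other 10 lowest, with ratios from -0.57 to -0.45, were Cpeb3, Fam71f2, Bpifa3, Atp8a2, Ubl4b, 1700080E11Rik, 1700001O22Rik, Theg, Isg20l2 and the ribosomal Rpl41. Members held more of Plbd2 (0.62), Ss18 (0.58), the splicing factor Srrm1 (0.55), Hsf5 (0.46), Ide (0.43), Sparc (0.42), the DNA clamp Pcna (0.40), Efcab5 (0.36), the kinetochore protein Cenpf (0.36), 4930562F07Rik (0.36), Pdia3 (0.34) and Glipr1l2 (0.34). Cenpf averaged 317 ± 55.0 CPM in members, 243 ± 34.5 in late barcodes and 499 in pachytene spermatocytes. Of these 12, all except Sparc and 4930562F07Rik were highest in pachytene spermatocytes.

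Gene lists of spermiogenesis were read in the same way, as the number of members of a list that stood on one side in all of WT4 to WT11. Over the 10166 genes with at least 5 UMIs in WT members, 9.75% were higher and 12.7% lower than in round spermatids, and 1.12% were higher and 1.28% lower than in late barcodes. Among genes of at least 50 CPM outside the rule the shares were 18.3% and 22.2% against round spermatids and 2.27% and 2.87% against late barcodes. Many list genes were of that level, so the larger shares apply to them. Acrosome genes stood lower than in round spermatids in 20 of 28 and higher in 2. Spaca1, a membrane protein of the acrosome, averaged 584 ± 120 CPM in members and 1534 ± 113 in round spermatids, and Acrv1, the matrix antigen SP-10, averaged 571 ± 72.5 and 1475 ± 64.1. Spaca1, Acrv1 and other acrosome genes of this list are among the markers that set the round class. Their differences, and the count of the list, follow in part from that choice. Transcription factors of spermatids stood lower in 10 of 23 and higher in 1, and Crem averaged 307 ± 83.6 CPM in members and 693 ± 44.6 in round spermatids.

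Histone replacement genes outside the rule stood higher than in round spermatids in 4 of 25 and lower in 3. H1fnt, the testis linker histone, averaged 1249 ± 139 CPM in members and 767 ± 87.0 in round spermatids, and Hmgb4 averaged 2718 ± 382 and 1693 ± 237. Tssk6, a kinase needed for histone removal, averaged 1037 ± 160 CPM in members, 283 ± 81.1 in round spermatids and 1306 ± 164 in late barcodes, where it was higher in all 8 libraries. Structural genes of the tail were divided, with 7 of 20 outer dense fiber and mitochondrial sheath genes higher and 8 lower, and 7 of 25 fibrous sheath and glycolysis genes higher and 9 lower. Smcp averaged 6384 ± 661 CPM in members, 3973 ± 429 in round spermatids and 8188 ± 826 in late barcodes. Gapdhs, the sperm glyceraldehyde-3-phosphate dehydrogenase, averaged 1692 ± 207, 989 ± 82.6 and 2215 ± 262 CPM in that order. Both lay between round spermatids and late barcodes in each of WT4 to WT11.

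The remaining lists, except the Cul4a list of the study, had genes on both sides. Higher and lower than in round spermatids were 9 and 8 of 27 calcium and kinase genes, 5 and 3 of 26 chaperones, 5 and 7 of 33 manchette genes, 5 and 11 of 52 ubiquitin and proteasome genes, 4 and 1 of 17 cytoplasm removal genes outside the rule, 3 and 8 of 27 genes of translational delay, 2 and 6 of 18 genes of a sex-linked list, 2 and 1 of 11 genes of a ribosomal list of the study and 0 of 2 genes of its Cul4a list. The sex-linked list also holds Pgk2, which is autosomal. Against late barcodes the counts over the 14 lists, genes of the rule left out, ran from 0 to 3 higher and from 0 to 4 lower. Pabpc1, the poly(A)-binding protein, was higher than in late barcodes in all of WT4 to WT11, with 5453 ± 584 against 4829 ± 411 CPM.

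Members took between 5.52% and 8.16% of the barcodes of WT4 to WT11 (mean 6.88 ± 0.90%, n = 8), 2.31% and 4.38% in Cul4a and 6.93% and 2.09% in CNP libraries. Both Cul4a libraries were under all of WT4 to WT11, and the CNP libraries were on both sides of the minimum of these 8. WT1, WT2 and WT3, which were outside the comparison, held 9.00%, 11.3% and 3.20%, so WT3 was under the second Cul4a library. The Cul4a difference of -3.53 percentage points had p = 0.0222 by an exact two-sided permutation test, the smallest p that 8 against 2 libraries allow, and an adjusted p of 0.104 over 14 tests, so it did not pass. No measure at that smallest p could pass this adjustment by itself. Among early and late barcodes together, members took 7.56% to 12.7% in WT (mean 10.4 ± 1.80%), 3.86% and 6.79% in Cul4a and 17.4% and 13.8% in CNP, again with p = 0.0222 by exact permutation for each strain and adjusted p = 0.104. WT4 to WT11 did not overlap either strain on this share, but WT1 and WT2 held 17.0% and 16.2%, above the second CNP library, and WT3 held 7.22%.

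Depth moved with the Cul4a share. Cul4a members held more UMIs than WT members, and after every barcode was thinned to 300 UMIs before the rule was applied, members took 14.4% and 12.5% of early and late barcodes in Cul4a and 14.2% to 19.3% in WT4 to WT11, which overlap. Among all barcodes the share after thinning was 7.02% and 6.74% in Cul4a and 7.48% to 11.2% in WT4 to WT11, which do not. In CNP the share among early and late barcodes after thinning was 19.5% and 23.2%, above WT4 to WT11, whereas WT1 held 20.4%. At margins of at least 2 UMIs, Cul4a shares were 2.01% and 3.74% against 3.65% to 7.40% in WT.

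Other measures of whole members did not pass in either strain. Mitochondrial transcripts took 2.54% and 4.01% of member UMIs in Cul4a libraries, 1.52% and 0.910% in CNP and 1.52% to 2.94% in WT, with adjusted p = 0.156 for Cul4a and 0.178 for CNP by exact permutation. With membership set after thinning to 300 UMIs the Cul4a difference was -0.4941 percentage points. In late barcodes these transcripts took 0.971% and 1.22% in Cul4a libraries and 1.29% to 2.59% in WT4 to WT11. As a description, since the rule used them, the chromatin genes took a mean of 4.15% in Cul4a and 5.07% in CNP members against 3.91 ± 0.82% in WT (n = 8), while in late barcodes they took 8.97% and 9.22% in Cul4a libraries and 2.81% to 5.83% in WT. X-linked UMIs made up 1.39% and 1.59% of autosomal UMIs in Cul4a and CNP members against 1.29 ± 0.10% in WT. Members thinned to 300 UMIs held 259.3, 261.3 and 262.3 ± 2.29 genes in Cul4a, CNP and WT libraries. None of the 12 tests of measures other than the chromatin gene share reached an adjusted p of 0.05. The exact permutation test could not go below p = 0.0222 here, so over 14 tests no measure could pass by itself. That none passed therefore does not show that the strains were alike.

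The targeted genes gave no check of the labels in these barcodes. Cul4a transcripts were counted 29 times in WT4 to WT11 (0 to 45.8 CPM), 4 and 8 times in the Cul4a libraries (54.1 and 69.0 CPM) and 0 times in CNP members, with a log2 fold change of 0.95 and an adjusted p of 0.42 (edgeR quasi-likelihood test, Benjamini-Hochberg). Both Cul4a libraries thus stood above WT4 to WT11 in these few counts, and where the 3′ tags lie relative to the disrupted part was not tested. Cnp, the myelin enzyme whose sequence drives the transgene, was too rare to test, with 2 UMIs in WT members and 0 in the others.

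In Cul4a members, mt-Cytb, mt-Nd1, Cyp17a1 and Insl3 were among the genes called higher than in WT members, and Grtp1, Spz1, Hk1 and Akap4 among those called lower. Of 11140 genes with at least 5 UMIs over the 12 libraries, 199 (1.79%) were called higher and 241 (2.16%) lower at an adjusted p under 0.05 (edgeR quasi-likelihood test, TMM normalization, Benjamini-Hochberg), 3.95% in all, and 1734 had an unadjusted p under 0.05. The Cul4a libraries did not overlap WT4 to WT11 for 155 of the 199 genes called higher and 222 of the 241 called lower, which are 1.39% and 1.99% of all genes tested. The split depended on the scaling. With RLE size factors 371 (3.33%) were higher and 65 (0.583%) lower, as the median log2 fold change of all genes moved from 0.03 to 0.32. All 199 higher calls and 65 of the 241 lower calls also passed with RLE.

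The calls leaned on 1 library and on members at small margins. Without the second Cul4a library 18 genes were called higher and 4 lower, and without the first 133 and 38, the remaining Cul4a library then being assumed to vary like the other groups. With margins of at least 2 UMIs 51 were higher and 51 lower. At margins of at least 3, a setting chosen after the data had been seen, the first Cul4a library held 8 members, under the minimum of 10 for a fit. The second was then the only Cul4a library, so no count is given. With membership set after thinning every barcode to 300 UMIs, 914 were higher and 282 lower. Many of the calls were also made in other barcodes: 94 of the 193 higher genes tested in ties were also called higher there, as were 135 of 199 in late barcodes, 85 of 194 in round spermatids and 144 of 199 in pachytene spermatocytes. In the last 3 classes 3, 1 and 1 were called lower. Of the 241 lower genes, 164 were called lower in ties, 147 in pachytene spermatocytes, 86 in late barcodes and 52 in round spermatids, and 11 were called higher in late barcodes and 4 in round spermatids. The share of all genes called in each class is not given here, so these counts have no share to be read against. Ties, late barcodes and members came from the same libraries, and tests of whether the effect differed between classes are given with the interactions.

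Among the 12 named genes that rose were 3 mitochondrial transcripts. mt-Cytb, cytochrome b of complex III, stood at 107, 270 and 399 CPM in WT4 to WT11 (lowest, median and highest) and at 1054 and 1345 in Cul4a libraries, a log2 fold change of 2.03 ± 0.20 (SE; edgeR quasi-likelihood adjusted p 4.35e-20). mt-Nd1, a subunit of complex I, stood at 183, 277 and 452 CPM and at 932 and 1448 (1.81 ± 0.20). Both Cul4a libraries were above all of WT4 to WT11 for both genes. mt-Nd4, a second complex I subunit, stood at 45.8, 172 and 238 CPM and at 419 and 647 (1.64 ± 0.25), but without the second Cul4a library its adjusted p was 0.090.

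Of the 6 Leydig markers 3 also rose. Cyp17a1, a steroid hydroxylase of Leydig cells, stood at 17.8, 51.5 and 90.8 CPM in WT and at 257 and 466 in Cul4a members, with a log2 fold change of 2.66 ± 0.32 (adjusted p 1.35e-13, edgeR). Insl3, the peptide hormone of Leydig cells, stood at 0, 45.2 and 60.6 CPM and at 176 and 422 (2.85 ± 0.35). Ptgds, the prostaglandin D synthase in the Leydig list, stood at 53.4, 100 and 176 CPM and at 230 and 1060 (2.48 ± 0.24). In each case both Cul4a libraries were above all of WT4 to WT11, with the second far above the first. Without the second library the adjusted p (edgeR quasi-likelihood) was 0.016 for Cyp17a1, 0.090 for Insl3 and 0.54 for Ptgds.

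Akr1cl, an aldo-keto reductase, stood at 8.76, 19.8 and 35.7 CPM in WT and at 149 and 241 in Cul4a members (log2 fold change 3.05 ± 0.43). Cst3, the secreted protease inhibitor cystatin C, stood at 46.0, 74.3 and 107 CPM and at 135 and 552 (2.14 ± 0.30). Fth1, the ferritin heavy chain, stood at 92.9, 163 and 207 CPM and at 392 and 638 (1.59 ± 0.25), and Gstm1, a glutathione transferase, at 8.76, 60.5 and 145 CPM and at 149 and 405 (2.06 ± 0.33). The Cul4a libraries were above all of WT4 to WT11 for these 4 genes, but without the second Cul4a library the adjusted p (edgeR) was 0.75 for Cst3, 0.14 for Fth1 and 0.56 for Gstm1.

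The other 2 were annotated as processed pseudogenes. Rps13-ps1, by its name a copy of the ribosomal gene Rps13, had 0 UMIs in the WT members and 39 in Cul4a members (176 and 224 CPM), at least 67.6-fold higher against a floor of 3 counts over the group. Gm1821 stood at 0, 19.2 and 30.9 CPM in WT and at 189 and 224 in Cul4a members (3.31 ± 0.44). Reads of such copies can be shared with the parent genes, so the source of these counts is uncertain. Over whole libraries, Rps13-ps1 took 236 to 267 CPM in Cul4a, at most 1.55 in WT, 0 in CNP and at most 0.711 in the Mlh3 libraries.

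Markers of other cells moved with the Cul4a members. Those of the 5 non-germ classes took 14.2 and 47.7 of every 10000 UMIs in Cul4a members against 6.26 to 11.7 in WT4 to WT11, and 9.94 and 12.4 against 5.00 to 9.07 in late barcodes. The 6 Leydig markers summed to 149 to 400 CPM in WT4 to WT11, with a median of 220, and to 716 and 2078 in Cul4a libraries, where 3 of 6 were called higher (Cyp17a1, Insl3 and Ptgds) and none of the 6 was at 0, beside 1.79% of all genes called higher. The 6 Sertoli markers summed to 350 to 798 CPM (median 510) and to 676 and 1957, with 4 of 6 called higher (Defb36, Cst12, Wfdc10 and Clu). Macrophage markers summed to 15.3 to 68.7 CPM in WT and to 0 and 259 in Cul4a, with Lyz2 called of the 4 tested and Cd68 at 0 in both strains. Telocyte markers summed to 17.5 to 62.4 CPM in WT and to 13.5 and 457 in Cul4a, with Dcn called of the 2 tested and Col3a1 at 0 in Cul4a. Blood markers summed to 0 to 45.8 CPM in WT and to 13.5 and 17.2 in Cul4a, with 0 of the 2 tested called and Hba-a1, Hba-a2 and Hbb-bt at 0 in Cul4a. The first Cul4a library thus stood above the WT range for the Leydig list, inside it for the Sertoli and blood lists and under it for the macrophage and telocyte lists, whereas the second stood above it for all but blood. Round spermatid markers summed to 3167 to 4270 CPM in WT and to 2581 and 2793 in Cul4a, with 4 of 15 called lower. Pachytene markers summed to 5608 to 7003 CPM in WT and to 7783 and 6905 in Cul4a, the first above the WT range, with 0 of 9 called. Over both Cul4a libraries Meig1 took 40.9 of their 72.5 per 10000 UMIs, against 37.4 of 63.2 in WT4 to WT11. The part of other cells in the differences was not tested.

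**Figure D4:**
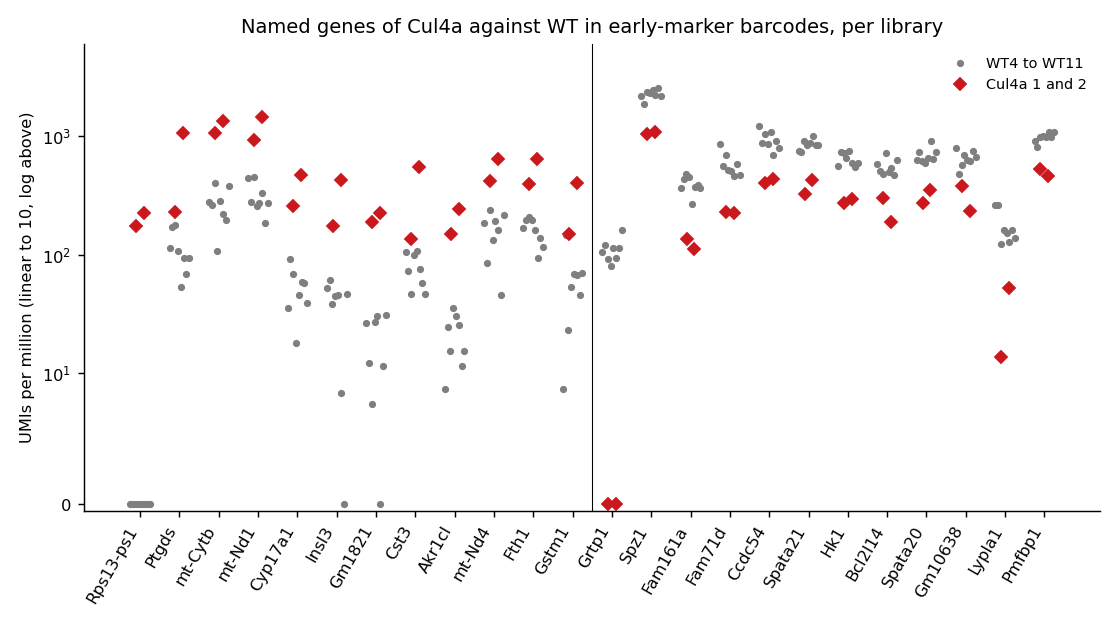
CPM in members (y axis, linear to 10 and logarithmic above) of each WT4 to WT11 library (grey) and of the 2 Cul4a libraries (red) for the 12 named genes that were higher, left, and the 12 that were lower, right. Both Cul4a points lie outside the WT points for all 24 genes, and Rps13-ps1 stands at 0 in WT and Grtp1 at 0 in Cul4a.

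The 12 named genes that fell were led by Grtp1, a GTPase regulator of the TBC family, with 80.3, 110 and 162 CPM in WT and 0 UMIs in Cul4a members, at least 7.05-fold lower against the floor of 3 counts (edgeR adjusted p 1.79e-06). Grtp1 lies on chr8:13172022-13200620, 66.4 kb from the start of Cul4a (chr8:13105621-13147940, GENCODE vM21, GRCm38). Over whole libraries Grtp1 took 64.4 to 198 CPM in WT, 200 and 241 in CNP, 106 to 304 in Mlh3 and 0.722 and 0.924 in Cul4a. Its low level in Cul4a libraries was thus not limited to the members. Within 5 Mb of Cul4a 3 of 38 tested genes were called, all lower (BB014433, Grtp1 and Spaca7), as were 4 of 77 (5.19%) within 10 Mb, 7 of 112 (6.25%) within 20 Mb, 1 of them higher, and 23 of 561 (4.1%) over the whole chromosome, beside 394 of 9886 (3.99%) on other chromosomes.

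The other 11 fell by 1.13 to 2.34 on the log2 scale. Spz1, a bHLH-ZIP factor of the testis, stood at 1865, 2274 and 2540 CPM in WT and at 1041 and 1086 in Cul4a (-1.22 ± 0.21, adjusted p 4.05e-06, edgeR). Hk1, the hexokinase that starts sperm glycolysis, stood at 549, 623 and 756 CPM and at 270 and 293 (-1.32 ± 0.26). Pmfbp1, which joins the sperm head to the tail, stood at 805, 980 and 1081 CPM and at 527 and 457 (-1.13 ± 0.23). The Cul4a libraries were under all of WT4 to WT11 for each of them.

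Fam161a, a centrosomal and ciliary protein, stood at 267, 380 and 475 CPM in WT and at 135 and 112 in Cul4a (-1.81 ± 0.32). Lypla1, a depalmitoylating thioesterase, stood at 123, 156 and 263 CPM and at 13.5 and 51.7 (-2.34 ± 0.48), the largest fitted change of the 11. Fam71d, Ccdc54, Spata21, Bcl2l14, Spata20 and Gm10638 had log2 fold changes between -1.49 and -1.25, without overlap between Cul4a and WT. Without the second Cul4a library, the adjusted p (edgeR) stayed under 0.05 only for Spata21 (0.049) and Lypla1 (0.049) among the 12 lower genes, and without the first it was 0.076 for Spata20 and 0.082 for Lypla1. With margins of at least 2 UMIs it was 0.108 for Spata21, 0.088 for Hk1, 0.083 for Spata20 and 0.093 for Pmfbp1. All 24 named genes passed with RLE, with adjusted p of at most 0.011.

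Counts of list genes called lower in Cul4a stand beside 2.16% of all genes called lower with TMM, many of which had few UMIs. A fit of only the 3457 genes that the edgeR count filter filterByExpr kept called 127 lower and 190 higher. The share at the level of each list was not computed, so the part of expression level in the list counts was not tested. The median log2 fold change was 0.03 over all genes but -0.31 over the 2511 genes with at least 80 UMIs in WT4 to WT11 (-0.01 with RLE), and several list medians lay near the latter. Of the fibrous sheath and sperm glycolysis genes 9 of 25 were called lower and 0 higher (median log2 fold change -0.38), and 4 stayed lower with RLE. Akap4, the main anchoring protein of the fibrous sheath, stood at 1015, 1106 and 1296 CPM in WT and at 500 and 647 in Cul4a (-1.09 ± 0.22, adjusted p 2.72e-04, edgeR). Fscb, a calcium-binding protein of the sheath, stood at 309, 360 and 471 CPM and at 81.1 and 198 (-1.45 ± 0.30). Neither overlapped between strains. The others were Akap3, Ropn1, Fsip2, Pgk2, Hk1, Aldoart2 and Slc16a7, between -1.32 and -0.73.

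Of the calcium and kinase genes 7 of 27 were called lower, 2 of them also with RLE (median -0.72). Cabs1, a calcium-binding protein of spermatids, stood at 849, 1318 and 1507 CPM in WT and at 784 and 612 in Cul4a (-1.03 ± 0.22). Tssk1, Tssk2, Tssk6, Camk4, Gsg1 and Gsg2 fell by 0.72 to 1.95 on the log2 scale. Of the acrosome genes 7 of 28 were called lower (median -0.45), 4 of them with RLE. Zp3r, a zona-binding protein of the acrosome, stood at 107, 164 and 236 CPM in WT and at 54.1 and 34.5 in Cul4a (-2.06 ± 0.47). Spaca1, Spaca7, Zpbp, Zpbp2, Izumo1 and Lyzl6 fell by 0.80 to 1.77. Tex101, a surface glycoprotein of germ cells, rose from 98.1 to 206 CPM over the WT libraries to 243 and 448 in Cul4a (1.08 ± 0.27), as the only member of the list called higher with TMM.

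Of the ubiquitin and proteasome genes, the list that holds Cul4a itself, 6 of 53 were called lower and 3 with RLE (median -0.21). Ubb, a polyubiquitin gene, stood at 1019, 1140 and 1659 CPM in WT and at 689 and 586 in Cul4a (-1.08 ± 0.22, without overlap). Ube2j1, Klhl10, the cullin 3 adaptor of spermatids, and Psme4, the proteasome activator of histone removal, fell by 0.78 to 1.15. Among chaperones 3 of 26 were called lower, Hspa1l (345, 562 and 666 CPM in WT, 270 and 216 in Cul4a, -1.31 ± 0.27), Dnajc5b and Dnajb3, and with RLE 2 were lower and 3 higher.

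Of the histone replacement genes outside the rule 3 of 26 were called lower (median -0.02), and with RLE at most 1 was lower and at most 1 higher. H1fnt stood at 1108, 1231 and 1522 CPM in WT and at 743 and 612 in Cul4a (-1.03 ± 0.22, without overlap), and Tssk6 and Camk4 were the others. Outer dense fiber and mitochondrial sheath genes were lower in 3 of 20 (Odf2, Spata18 and Ccdc136), and manchette genes in 3 of 33 (Hook1 and Ssx2ip among them), with 0 of either called with RLE. Translational delay genes were lower in 2 of 27 (Ybx1 and Papolb), transcription genes in 2 of 23 (Rfx3 and Papolb) and cytoplasm removal genes outside the rule in 2 of 18 (Bcl2l14 and Capza3). In the sex-linked list 2 of 19 were lower (Akap4 and the autosomal Pgk2). With RLE 0 genes of translational delay and of transcription were lower and 1 of each list was higher, 1 cytoplasm removal gene was lower and 2 were higher, and 1 gene of the sex-linked list was lower. In the acrosome list 2 genes were higher with RLE, and 1 each in the fibrous sheath, calcium and ubiquitin lists. The genes of the rule chose the members, so no test of them is given.

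The list calls also differed with membership set after thinning to 300 UMIs and without 1 library. Thinning changed which barcodes were members (194 in place of 64 in the first Cul4a library), and the part of depth was not tested. In that setting the log2 fold changes of H1fnt, Gsg1, Tssk1, Tssk6, Ropn1, Dnajb3, Dnajc5b, Ube2j1, Capza3 and Rfx3 were above 0, between 0.0061 and 0.23. Without the second Cul4a library, Fscb (adjusted p 0.024, edgeR) was the only list gene called lower with TMM that still passed.

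In 2 lists taken from the study, which chose them on these samples, some genes rose. The study tied the ribosomal list to sequencing platform as a batch effect, and the 12 libraries compared here were all sequenced on a HiSeq. The study's methods also count the component behind the Cul4a list among likely technical ones, led mainly by ribosomal genes or pseudogenes. Of the Cul4a list 2 of 4 tested genes were called higher. Tagln2, an actin-binding protein, had 0 UMIs in WT members and 6 in Cul4a members, at least 10.4-fold higher, and Hist1h2al, a histone H2A gene, had 1 and 11 UMIs, a WT level of 0.0175 of the Cul4a level (95% counting interval 4.06e-04 to 0.120). The median of this list was 2.99, or 2.37 with Tagln2 at its bound. Of the ribosomal list 2 of 11 were called higher, among them Rps12 (0.82 ± 0.26). Being chosen on these libraries, the lists are not independent evidence of the direction.

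**Figure D5:**
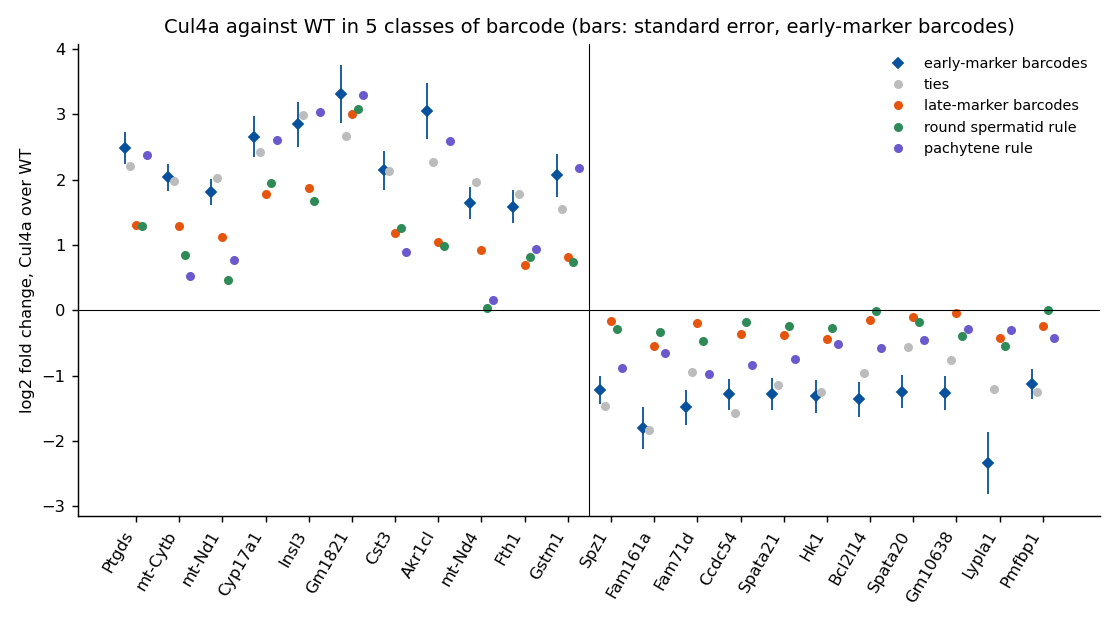
Log2 fold change of Cul4a over WT (y axis) of the named genes other than Rps13-ps1 and Grtp1 (x axis) in members with SE bars, ties, late barcodes, round spermatids and pachytene spermatocytes. Values of late barcodes lie nearer 0 than those of members for each of the 22 genes. The genes were chosen by their adjusted p in members, so smaller values in other classes follow in part from that choice.

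The Cul4a effect in members differed from that in late barcodes for 668 of 19112 genes (3.5%) outside the rule, 85 (0.445%) more positive and 583 (3.05%) more negative in members (edgeR quasi-likelihood interaction test with the library as block, Benjamini-Hochberg). With RLE the split was 281 (1.47%) and 263 (1.38%). Smcp averaged 6384 ± 661 CPM in WT members and stood at 5365 and 4500 in Cul4a members, whereas late barcodes held 8188 ± 826 CPM in WT and 11055 and 11445 in Cul4a. Its effects differed by -1.26 ± 0.09 on the log2 scale. Gsg1 averaged 2351 ± 202 CPM in WT members and stood at 1392 and 1422 in Cul4a members, against 3041 ± 325, 3509 and 4114 CPM in late barcodes (-1.49 ± 0.12). Hmgb4 (-1.23 ± 0.11) and Gapdhs (-1.31 ± 0.12) differed in the same direction. mt-Rnr2 differed the other way (0.96 ± 0.08), at 19119 ± 4478, 22053 and 35252 CPM in members and 16057 ± 3982, 7958 and 10356 CPM in late barcodes.

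Against round spermatids 260 of 14949 genes (1.74%) outside the rule differed, 30 (0.201%) more positive and 230 (1.54%) more negative in members, and with RLE 57 (0.381%) and 25 (0.167%). Malat1, a nuclear noncoding RNA, averaged 1009 ± 206 CPM in WT members and stood at 1608 and 2733 in Cul4a members, whereas round spermatids held 690 ± 360, 158 and 325 CPM (2.31 ± 0.18). mt-Rnr2 (1.09 ± 0.13), Dbil5 (-1.18 ± 0.16), Smcp (-0.94 ± 0.14) and Hmgb4 (-1.04 ± 0.15) were the other 4 of smallest adjusted p. With membership set after thinning to 300 UMIs, mt-Rnr2 and Hmgb4 against late barcodes and all 5 against round spermatids no longer passed, with adjusted p of 0.095 to 1, and the differences from late barcodes that still passed were -0.49 for Smcp, -0.57 for Gsg1 and -0.48 for Gapdhs. Without the second Cul4a library the effect differed for 203 genes against late barcodes and for 31 against round spermatids, where it differed for 398 without WT5, 444 without WT11 and 391 without the first CNP library, and the adjusted p (edgeR) of mt-Rnr2 against round spermatids was 0.231.

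By list, the Cul4a effect was more negative than in late barcodes for 15 of 26 fibrous sheath and glycolysis genes, 10 of 28 calcium and kinase genes, 7 of 20 outer dense fiber and mitochondrial sheath genes, 7 of 28 acrosome genes and 7 of 28 histone replacement genes, beside 3.05% of all genes. A fit of only the 4420 genes that filterByExpr kept called 527 more negative and 334 more positive, and the share at the level of each list was not computed. With RLE the counts of these 5 lists were 8, 9, 4, 1 and 6, beside 1, 3, 0, 2 and 1 more positive. Transcription genes were more negative in 4 of 23, cytoplasm removal genes in 4 of 21 and genes of the sex-linked list in 8 of 23. With RLE these counts were 2, 3 and 5, and 0 were more positive under either scaling. The directions of some other lists depended on the scaling. Ubiquitin and proteasome genes were more negative in 12 of 55 and more positive in 1, and with RLE in 3 and 4. Chaperones were more negative in 7 of 26 and more positive in 2, and with RLE in 4 and 6. Translational delay genes were more negative in 1 of 28 and more positive in 1, and with RLE in 0 and 5. Slc2a3, a glucose transporter, was the 1 gene of the fibrous sheath and glycolysis list with a more positive effect in members.

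CNP members, of which there were 63, differed from WT members in 19 genes (0.171% of 11140), all lower, and 687 genes had an unadjusted p under 0.05 (edgeR quasi-likelihood test, Benjamini-Hochberg). The median log2 fold change was -1.28 over all genes and -0.52 over those with at least 80 UMIs in WT4 to WT11 with TMM, -1.01 and -0.24 with RLE, and 0.17 and -0.25 with DESeq2. DESeq2 called 2 and RLE scaling 6 (0.0539%). At margins of at least 2 UMIs the second CNP library held under 10 members, the minimum for a fit. The first was then the only CNP library, so no count is given. Pabpc1 stood at 4563, 5522 and 6129 CPM in WT and at 2775 and 1092 in CNP members (-1.79 ± 0.25, adjusted p 2.20e-08). Hsp90aa1, an inducible chaperone, stood at 878, 1007 and 1411 CPM and at 204 and 121 (-3.07 ± 0.46), and Eif1, a translation initiation factor, at 608, 754 and 1279 CPM and at 122 and 121 (-3.17 ± 0.53). Both CNP libraries were under all of WT4 to WT11 for these 3 genes, but Eif1 and Hsp90aa1 rested on 4 and 6 CNP UMIs.

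No marker of other cells was called in CNP members, where their sums were as follows. The 9 pachytene markers summed to 8897 and 9346 CPM in CNP libraries, above all of WT4 to WT11 (5608 to 7003), and none was at 0. Over both CNP libraries Meig1 took 58.6 of their 90.1 per 10000 UMIs, against 37.4 of 63.2 in WT4 to WT11. Round spermatid markers summed to 3347 and 4612 CPM against 3167 to 4270. Leydig markers summed to 163 and 0 CPM, Sertoli markers to 490 and 121, macrophage markers to 40.8 and 243, telocyte markers to 40.8 and 0 and blood markers to 0 in both. The part of other cells in the CNP differences was not tested.

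Of the ribosomal list, which the study chose on these samples and tied to a component of sequencing platform, 8 of 11 were called lower, and 9 of the 11 had 0 UMIs in CNP members. Rps7 and Rpl11, ribosomal proteins, had 338 and 302 UMIs in WT members and 0 in CNP members, at least 3.73-fold and 3.34-fold lower against 3 counts over the group. Rps13, Fau and Rps12 were at least 2.61-fold, 2.36-fold and 2.30-fold lower. Tpt1, with 2 UMIs, stood at 0.179 of the WT level (95% counting interval 0.0216 to 0.652), Eef1g at 0.0906 (0.00229 to 0.509) and Naca at 0.101 (0.00255 to 0.567), the latter 2 with 1 UMI each. Beside medians of -1.28 over all genes and -0.52 over those with at least 80 UMIs in WT4 to WT11, mt-Rnr2 fell by 1.23 ± 0.22, Mea1 by 2.12 ± 0.44 and Ubb by 1.58 ± 0.34 on the log2 scale, and Ube2n was at least 2.22-fold lower. Of the 19 genes, 16 were called lower in ties, 18 in late barcodes, 16 in round spermatids and 16 in pachytene spermatocytes, with 1 called higher there. These classes came from the same libraries, and the share of all genes called in each is not given here. Without the first CNP library 5 genes were called and without the second 7, while without WT4, WT5 or WT10 there were 29, 48 and 58.

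Over the whole series the 25 tables held 65063387 UMIs of 29244 genes, and the 12 libraries of the tests held 775386 to 9745302 UMIs each, with the Cul4a libraries deepest and the CNP libraries shallowest. Members of WT4 to WT11 held 988243 UMIs, of Cul4a 189998 and of CNP 32741, so that 3 counts over a group stand for 3.04, 15.8 and 91.6 CPM. A gene that WT members held under the last of these levels could thus not be shown lower in CNP members. Intervals and floors cover counting error only.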

How the data were processed

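Single-cell tables of testis from WT, Cul4a and CNP mice were used. Per the labels and the study's methods, the authors made Drop-seq libraries, aligned reads and deposited counts of UMIs per gene and barcode; the submitters' processing notes name bcl2fastq, STAR 2.5.3a and the build GRCm38 (mm10). Mlh3 libraries entered no comparison and gave only counts of barcodes that met the rule and whole-library levels of single genes. The count tables were used as deposited, without a doublet caller.

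The members and the gene lists were chosen with earlier results of these data known, and the TATA search and the margin of at least 3 after values had been seen. Barcodes with at least 300 UMIs were assigned by the rule given in the report. Late barcodes met the same floors with more late than early UMIs, ties had equal numbers, and round spermatids (under the chromatin gene floor) and pachytene spermatocytes were set by marker counts among the remaining barcodes. Member UMIs were summed per library, the unit of replication. Genes with at least 5 UMIs over the 12 libraries (WT4 to WT11, 2 Cul4a, 2 CNP) were fitted with TMM normalization by the quasi-likelihood test of edgeR 4.0.16 (R 4.3.3), with p-values adjusted by Benjamini-Hochberg over all genes. Interactions were fitted on member and comparison sums with the library as a block. Shares and other single values were compared by exact permutation over libraries (scipy 1.17.1). Alternatives were DESeq2 1.42.0, RLE normalization, gene filters, all WT libraries, each library left out, and other floors, margins and thinning to 300 UMIs. The test scripts were tested on simulated counts. The study's methods name 2 bead lots, its sample list gives all libraries the same one, and which libraries were sequenced in a pool is not given in the sources used here. P-values measure the spread between these libraries, which may be technical.

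Named were, per strain, the 12 genes of smallest adjusted p in each direction among those called without overlap between the mutant and WT libraries, the 5 of smallest adjusted p per interaction, the rule genes, Cul4a and Cnp, list genes that passed (some of them not reported here) with a few defining members, and the 12 with the largest and the 12 with the smallest median log2 ratio (20 CPM added) against round and late barcodes, among genes of at least 50 CPM that moved one way in every WT library of the fit. Member totals were 87413 to 165115 UMIs in WT4 to WT11, 74003 and 115995 in Cul4a and 24502 and 8239 in CNP libraries.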

Additional observations from a re-analysis of the deposited data

Results flagged for a closer look

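The Cul4a effect in members differed from that in late barcodes for the 5 genes of smallest adjusted p, by the edgeR interaction test, with log2 differences of -1.256 for Smcp, -1.493 for Gsg1, 0.9559 for mt-Rnr2, -1.231 for Hmgb4 and -1.314 for Gapdhs. Against round spermatids the differences were 2.313 for Malat1, 1.092 for mt-Rnr2, -1.184 for Dbil5, -0.9445 for Smcp and -1.039 for Hmgb4. Each kept its direction with RLE normalization. Cul4a members were deeper than WT members, and the part of depth was not tested beyond the thinning given above.

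A single library stood far from the other WT libraries in 3 of 43 groups of values, where chance gives about 1 in 20. Gstm1 was at 145.4 CPM in members of WT5 and at 8.759 to 69.46 in the other 7 libraries of the fit. Spata20 was at 911.7 CPM in WT9 and at 597.7 to 740.9 in the others, and Eif1 was at 1279 CPM in WT4 and at 607.8 to 805.5 in the others.

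In the sorted spermatids, which entered no comparison, 6.509% of barcodes met the rule (11 of 169, exact 95% binomial interval 3.29% to 11.3%), and 110 were late barcodes. The chromatin genes took 12.9% of the UMIs of these 11.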

How the results depend on the processing

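The counts of calls moved by over 1.5 times under many settings, and unless a construction is named the cause was not tested. In Cul4a members 440 genes were called, and as totals of their own fits, not as shares of the 440, DESeq2 called 139, all WT libraries gave 223, at least 500 UMIs 290, at least 3% chromatin gene UMIs 63, margins of at least 2 UMIs 102, and thinned membership 1196. In the settings of UMIs, chromatin genes, margin and thinning there were fewer or other members. In CNP members 19 were called, and by the same kind of total DESeq2 called 2, RLE and filterByExpr 6 each, all WT libraries with dissociation and platform 36, thinned membership 41 and members under the 95th percentile of UMIs 48. At 500 UMIs, at 3% and at a margin of 2 the second CNP library held under 10 members. The first was then the only CNP library, so no CNP count is given there. The 668 interactions with late barcodes became 244 at 3%, 201 and 35 at margins of 2 and 3, and 131 after thinning, and the 260 with round spermatids became 82 with RLE, 425 with all WT libraries, dissociation and platform, 58 at 3%, 73 and 4 at the margins and 6 after thinning. At a margin of 3 the first Cul4a library and both CNP libraries held under 10 members, so no count of strain calls is given there. The interaction counts at that margin rest on the second Cul4a library alone, so they cannot be compared with the 668 and the 260. Leaving out barcodes with markers of other cells left too few for any fit.

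Leaving out each library gave 22 to 477 calls in Cul4a, 5 to 58 in CNP, 203 to 719 interactions with late and 31 to 444 with round barcodes. Without the second Cul4a library the lowest counts arose, except in CNP, where it was the first CNP library. Over the same settings the share of members differed from WT by -4.562 to -2.495 percentage points in Cul4a and -4.784 to 0.04989 in CNP, their share among early and late barcodes by -6.502 to -3.57 and 3.399 to 7.029, the chromatin gene share, a description since the rule used it, by -0.1758 to 0.6662 and 0.1515 to 2.176, the mitochondrial share by 0.513 to 1.983 and -1.118 to -0.5064, the X-linked ratio by 0.08178 to 0.1291 and 0.02942 to 0.5644, the Y-linked ratio by 0.00151 to 0.008192 and -0.00161 to 0.002937, and genes in 300 UMIs by -4.636 to -1.282 and -1.465 to -0.357.

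Directions reversed as follows, in some settings with a library lost as named, and the cause was not tested. The chromatin gene share in Cul4a was -0.71 with all WT libraries, -0.2618 at 500 UMIs and -0.5205 at a margin of 2. The mitochondrial share was -0.4941 and the Y-linked ratio -0.001919 after thinning, and the X-linked ratio was -0.01477 at 500 UMIs. At a margin of 3 only the second Cul4a library was left, as the first held 8 members. Its chromatin gene share differed by -2.549, its X-linked ratio by -0.2771 and its Y-linked ratio by -0.005129. In CNP the Y-linked ratio was -0.002556 with all WT libraries and -0.002631 after thinning. At 500 UMIs and at a margin of 2 only the first CNP library was left, as the second held under 10 members. Its Y-linked ratio differed by -0.01431 and -0.003341, and its share of members by 0.2386 at a margin of 2. Without the second CNP library the main rule gave a share difference of 0.04989, so a reversal by margin cannot be read from these values. Genes in 300 UMIs were 1.357 in Cul4a and 3.361 in CNP with all WT libraries. After thinning, log2 fold changes in Cul4a were 0.04839 for Capza3, 0.1313 for Dnajb3, 0.03202 for Dnajc5b, 0.09602 for Gsg1, 0.06877 for H1fnt, 0.13 for Rfx3, 0.2321 for Ropn1, 0.006136 for Tssk1, 0.07468 for Tssk6 and 0.0345 for Ube2j1. At a margin of 3, with the second Cul4a library alone, they were 0.02627 for Papolb and 0.2678 for Psme4. Log2 ratios over late barcodes were -0.01746 for Plbd2, -0.1578 for Srrm1, -0.01456 for Hsf5 and -0.03953 for Efcab5 after thinning, and -5.435e-06 for Ide at a margin of 2. At a margin of 3 they were -1.106 for Plbd2, -1.024 for Ss18, -0.9282 for Srrm1 and -0.02382 for Glipr1l2. With UMIs summed over WT4 to WT11 at that margin, they were 0.471 for Plbd2, 0.0382 for Ss18, -0.180 for Srrm1 and 0.431 for Glipr1l2, so only Srrm1 was reversed both ways. Without barcodes holding 2 or more UMIs of other cell markers they were -0.3665 for Plbd2, -0.6765 for Ss18, -0.08478 for Sparc and -1.324 for Pcna, and 1700001P01Rik over round spermatids was 0.7317.

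The replicate numbers did not pair the samples, since Cul4a and CNP libraries of the same number deviated from their group means with a correlation of -0.024 over 3622 genes. With the replicate block, which needs all WT libraries and leaves 1 residual degree of freedom, there were 11 calls in Cul4a, 7 in CNP, 0 interactions with late barcodes (166 at an unadjusted p under 0.05, edgeR) and 1 with round. In that fit with the replicate block, the log2 fold changes that reversed were 0.6504 for Grtp1, 0.2801 for Papolb, 0.3825 for Psme4, 0.1011 for Ropn1, 0.1249 for Spaca1, 0.4788 for Spata18, 0.01949 for Tssk6, 0.09977 for Ube2j1 and 0.911 for Zpbp2 in Cul4a and 0.2062 for Rpl11 in CNP. Of 2376 values of 93 named genes over all settings, 1717 kept direction and call, 637 kept the direction only and 22 reversed. At this depth, genes under 91.6 CPM in WT members could not be shown lower in CNP members.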
